A study of Rattus norvegicus with 6 samples.

Results

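DNA replication and S-phase genes were followed in RNA-seq libraries of rat PC12 cells that carried a control plasmid or overexpressed PCBP1, an RNA- and DNA-binding protein of the poly(C)-binding family. The set holds 48 genes that were listed by symbol, and all 48 were found among the 20609 genes of the deposited count table, with 1 row each. The genes were chosen by symbol and function, and the list was put forward with the fold changes of this same comparison known, so the fold changes and adjusted p-values of its members describe these libraries and are not independent evidence of a direction. Of the 48 genes, 11 license origins, 6 take part in origin firing, 20 belong to the polymerases and the replication fork, 5 supply nucleotides, and 6 control S phase or copy DNA methylation.

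PC12 cells were derived from a pheochromocytoma of the rat, which is a tumor of chromaffin cells. There were 3 libraries from cells transfected with the control plasmid (control) and 3 from cells with PCBP1 overexpression (PCBP1-OE), and polyadenylated RNA was sequenced. The paper calls the PCBP1 overexpression stable, while its methods describe a plasmid transfection and name no selection of cells. The sources describe no sorting, so cells that took up no plasmid may be included. No harvest time is given for these libraries in the sources used here. The labels name replicates but do not say how they were separated, so that the p-values measure the spread between these samples, part of which may be technical.

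The libraries held 19730209 to 22315623 counts on genes, and the replication genes took 0.397 to 0.401% of these in control and 0.375 to 0.387% in PCBP1-OE. The table has no row matched to the PCBP1 gene, so the overexpression was not checked here. The libraries labelled PC12 were nearly empty of several defining chromaffin genes: Chga had 0 to 3 counts per library, Dbh 0 to 5, Ddc 0 to 4 and Syp 4 to 12, while Th had 141 to 185 and Scg2 2607 to 3553. Of the glial and fibroblast markers, Sox10 had 7160 to 9007 counts, S100b 4143 to 5339 and Pdgfra 3939 to 4941, and the leukocyte marker Ptprc had 0 to 3. The 10 of 12 chromaffin markers in the table summed to 153 to 179 CPM (counts scaled to a common library size) in control and to 143 to 160 CPM in PCBP1-OE. The 5 glial markers summed to 600 to 655 against 583 to 617 CPM, and the 4 of 5 fibroblast markers to 221 to 226 against 204 to 217 CPM. For the 3 of 4 endothelial markers in the table, the sums were 3.999 to 5.65 against 4.92 to 6.003 CPM, and for the 4 of 5 leukocyte markers 6.61 to 7.62 against 6.08 to 6.41 CPM. The part of these markers in the results was not tested.

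A cell copies its genome once per cycle. In G1 the origin recognition complex, Cdc6 and Cdt1 load the Mcm2 to Mcm7 helicase onto origins (licensing), and in S phase Cdc45 and the GINS complex activate the helicase while polymerases alpha, delta and epsilon, the clamp Pcna and its loader copy both strands. Many of these genes are transcribed at the transition from G1 to S by E2F factors, which recognise short sequence words near start sites.

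This word was looked for in the RefSeq promoter windows of the assembly GRCr8, each 300 bases long (250 before to 50 after the start site), because the members share a function and no count entered the search. It was searched on both strands as TTTCCCGC, TTTCGCGC, TTTGCCGC and TTTGGCGC, which can overlap one another on opposite strands, as they do in Mcm2 and Gins1. Promoters were matched for 40 of the 48 genes, all but Orc1, Cdc6, Mcm4, Gins4, Rpa3, Rrm2, E2f1 and Ccne2. Of the 40, 20 held a word (50%), compared with 651 of all 27457 genes with a promoter (2.37%), expressed or not. Among the genes with a matched promoter and enough counts to be tested below, 385 held a word and 8481 held none. The sequences shown belong to the genes that stood at either end of their role group or changed in the libraries, with the word in capitals; each is written 5′ to 3′ along the gene's strand.

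Mcm2 (chr4:122918090-122918119, minus strand): cgtgacccggtTTTCGCGCgaaaacccgtg
Mcm3 (chr9:30733715-30733744, minus strand): acttgggaagtTTTCGCGCcagggaggagt
Mcm7 (chr12:22163212-22163241, minus strand): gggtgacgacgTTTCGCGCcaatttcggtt
Gmnn (chr17:40729861-40729883, plus strand): gttcgggtcgtTTTGGCGCggtt
Gins1 (chr3:160184884-160184913, plus strand): ggttaagcctaTTTGGCGCcaaagagagga
Pold3 (chr1:163868763-163868791, minus strand): gagcgaagctgTTTCCCGCcggcgggagc

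Most of these genes had a word within 100 bases of the start site. The window reaches only 250 bases before the start and 50 after it, so closeness is in part set by the search. Words that overlap on opposite strands are counted separately. Of 30 words in 20 promoters, 22 lay within 100 bases of the start, and 17 of the 20 genes had at least 1 such word. Words stood in 7 of 8 licensing promoters (87.5%), 2 of 5 of origin firing (40%), 7 of 19 of the polymerases and fork (36.8%), 1 of 4 of nucleotide supply (25%) and 3 of 4 of S-phase control and methylation (75%). The CCAAT word, searched on both strands, was in 60% of the replication genes with a promoter and 39.6% of all genes with one. TTTGAA, the core of the element known as CHR, was in 12.5% and 19.4%. Among 32 promoters of G2/M genes the order was another one, with the E2F word in 3.13%, CCAAT in 78.1% and TTTGAA in 65.6%. A match is a run of letters and not a known binding site.

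**Figure D1:**
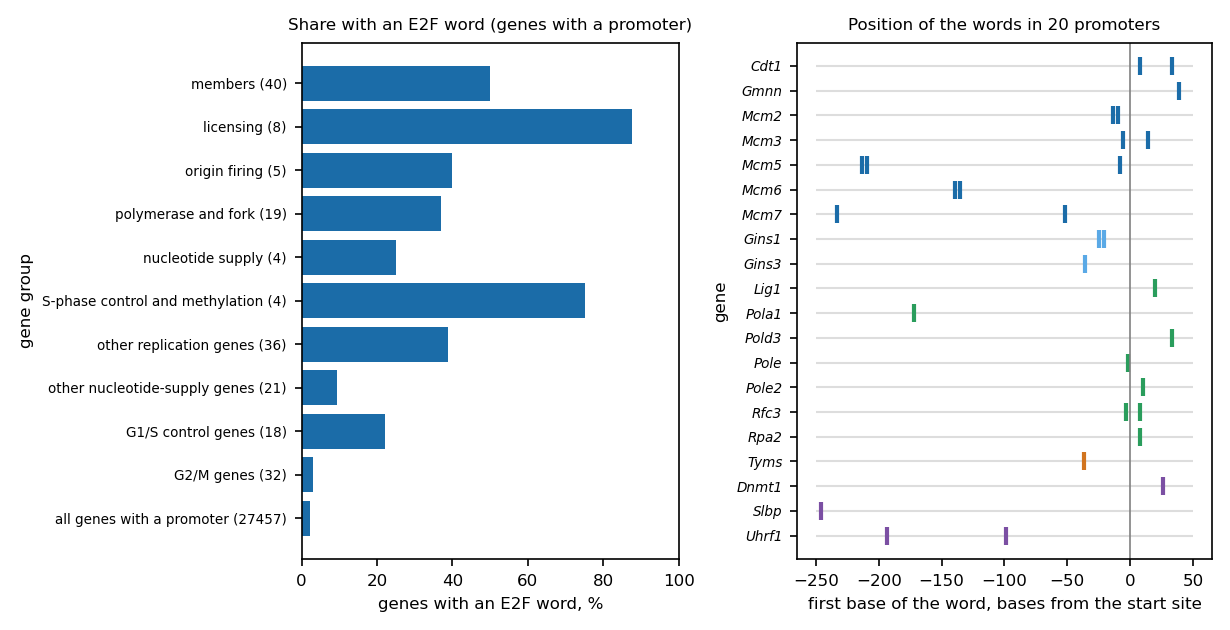
Left, the share of genes with an E2F word in a promoter (%) in each gene group, with the number of genes that have a promoter in parentheses. Right, the position of each word (bases from the start site, negative before it) in the 20 replication promoters that hold one, coloured by role, with 22 of 30 words within 100 bases of the start.

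Gene expression in PCBP1-OE was then compared with control to see how the replication genes moved. The counts were scaled by the TMM method and tested with edgeR's quasi-likelihood test over the 12624 genes with enough counts, and a gene is said to have risen or fallen where its Benjamini-Hochberg adjusted p was 0.05 or less, at any fold change. All 48 replication genes entered the test. Levels are given in CPM, which are not per length, so that each gene is compared with itself alone. In bulk libraries fewer cells in S phase and less RNA per cell cannot be told apart.

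Of the 48 genes 9 fell in PCBP1-OE and 0 rose. Those that fell were Tk1, E2f1, Gins1, Gmnn, Mcm3, Mcm7, Rfc2, Mcm2 and Rrm1, and the decrease was smallest for Rrm1, which fell by 10.1%, and largest for Tk1, which fell by 22.7%. Across all genes tested 9.45% were called, with 4.45% higher and 5% lower. The median log2 fold change of the 48 genes was -0.13, compared with 0.0029 for all genes tested. At an unadjusted p of 0.05, 21 of the 48 were lower and 1, Rrm2, was higher. Over all 12624 genes tested, 1866 were lower and 1722 higher at this unadjusted threshold. With DESeq2 12 of the 48 fell and 0 rose, and over all genes tested 752 fell and 666 rose. Upper-quartile scaling moved the split of calls over all genes from 562 higher and 631 lower to 655 and 427, with 8 replication genes lower and 0 higher.

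All 3 PCBP1-OE libraries lay below all 3 controls in 20 of the 48 genes, and above them in 1, Pold3. Of all genes tested, 16.5% lay below control in this way and 14.1% above. The summed level of the 48 genes was 4100, 4081 and 3977 CPM in control replicates 1 to 3 and 3752, 3688 and 3791 CPM in PCBP1-OE replicates 1 to 3. These sums did not overlap, and control replicate 3 was the control nearest to PCBP1-OE. In that library 17 of the 48 genes stood above their control mean, compared with 35 in control replicate 1.

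The number of genes that passed depended on single libraries. Without control replicate 1, 2 or 3 the replication genes that fell numbered 4, 0 and 17, and without PCBP1-OE replicate 1, 2 or 3 they numbered 3, 2 and 7. Over all genes the calls in these fits were 246, 48, 2860, 169, 136 and 697, compared with 1193 in the full fit. Tk1 and Mcm3 lost the call without control replicate 2, and E2f1 lost it without control replicate 2 or PCBP1-OE replicate 2. Mcm7, Gmnn and Gins1 lost it without control replicate 1 or 2 or PCBP1-OE replicate 1 or 2, and Rfc2, Mcm2 and Rrm1 lost it without any library other than control replicate 3. Without control replicate 3, Rrm2 rose. The median of the 48 genes was less affected and stayed between -0.15 and -0.10 on the log2 scale.

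**Figure D2:**
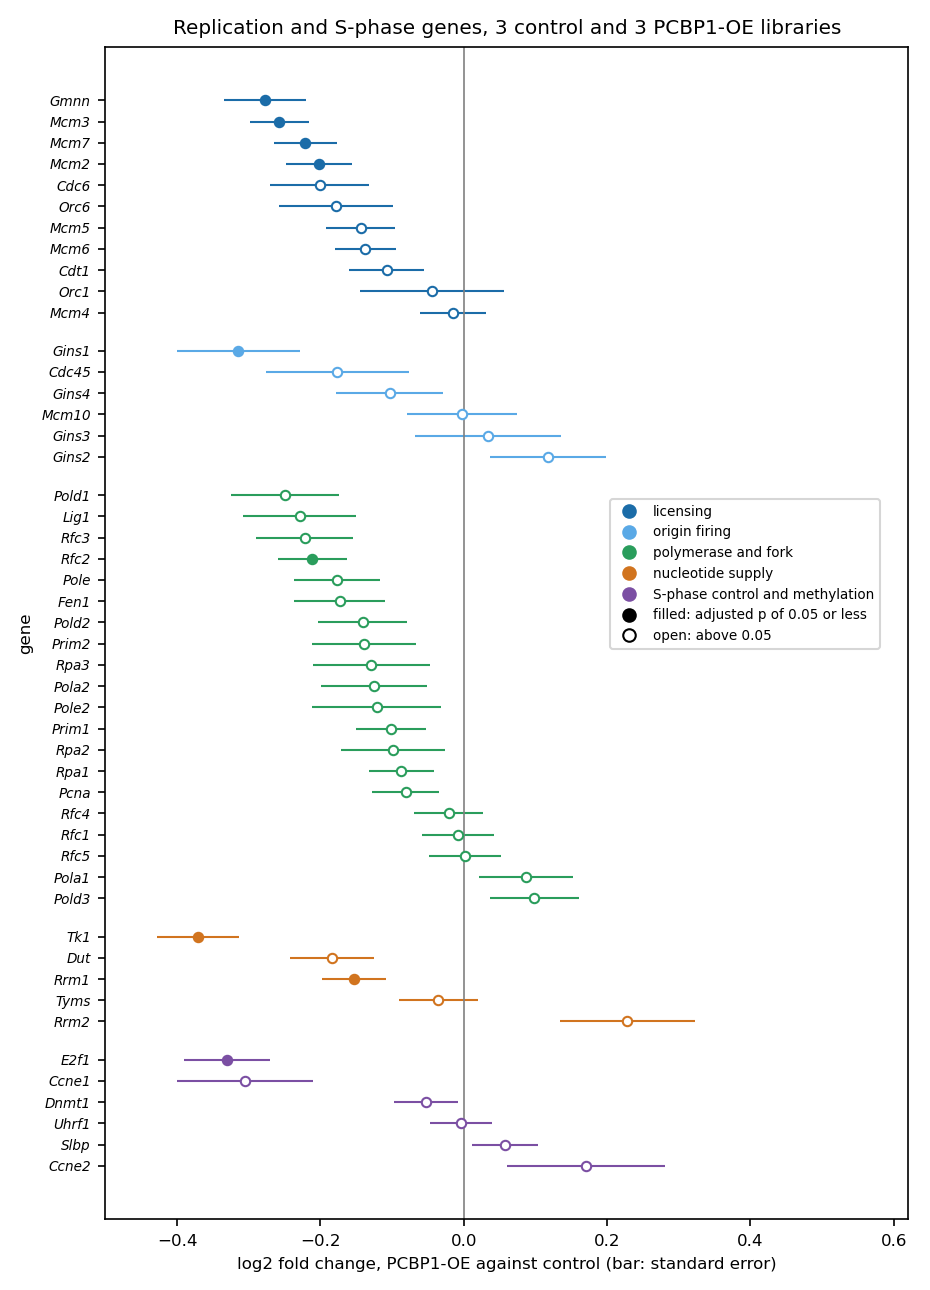
Log2 fold change of each of the 48 genes, PCBP1-OE against control (horizontal axis, bars are 1 standard error from the edgeR fit), ordered within role groups by colour. Filled points have an adjusted p of 0.05 or less; all 9 filled points lie left of 0, and 40 of the 48 genes do (36 under upper-quartile scaling).

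The licensing genes had the lowest median of the 5 role groups, -0.18 on the log2 scale. Of the 11, 4 fell (Gmnn, Mcm3, Mcm7 and Mcm2), 8 lay below control in every library, and all 11 had a negative log2 fold change, although that of Mcm4 was positive under upper-quartile scaling (0.0050) and when control replicate 1, control replicate 3 or PCBP1-OE replicate 3 was left out. The count of 4 became 1, 0 and 5 without control replicate 1, 2 or 3 and 1, 1 and 3 without PCBP1-OE replicate 1, 2 or 3.

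Among the helicase subunits Mcm2 to Mcm7, which form a ring with 1 copy of each, 3 of 6 fell. Mcm3 (ENSRNOG00000012543, chromosome 9) was at 116, 117 and 114 CPM in control and at 98.5, 95.7 and 96.3 CPM in PCBP1-OE. The gap between the groups was several times the spread within either one. Mcm3 fell by 16.3% (log2 fold change -0.26, SE 0.042, adjusted p = 0.0078 by edgeR's quasi-likelihood test). Mcm7 (ENSRNOG00000001349, chromosome 12) was at 144, 139 and 139 CPM in control and at 116, 122 and 124 CPM in PCBP1-OE. Here too no PCBP1-OE library reached a control. Its decrease was 0.22 on the log2 scale (log2 fold change -0.22, SE 0.044, adjusted p = 0.014). Mcm2 (ENSRNOG00000016316, chromosome 4) read 161, 153 and 154 CPM in control and 134, 142 and 132 CPM in PCBP1-OE. PCBP1-OE replicate 2 came closest to the controls without reaching them. The log2 fold change of Mcm2 was -0.20 (SE 0.046, adjusted p = 0.022).

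Mcm4 did not follow these subunits. Its levels were 168, 160 and 171 CPM in control and 170, 165 and 159 CPM in PCBP1-OE, so the groups overlapped in full. Its log2 fold change was -0.015 (SE 0.046, adjusted p = 0.86). As a ratio of CPM within a library, a comparison made after the values were seen, Mcm4 to Mcm7 was 1.17, 1.15 and 1.23 in control and 1.46, 1.35 and 1.29 in PCBP1-OE. Between Mcm4 and Mcm6 the ratio was 0.915, 0.899 and 0.962 in control and 1.02, 1.02 and 0.985 in PCBP1-OE. Neither ratio overlapped between the groups, which describes unequal change and was not tested. Mcm5 (log2 fold change -0.14) and Mcm6 (-0.14) lay below control in every library with adjusted p-values of 0.075 and 0.059.

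Gmnn (ENSRNOG00000018782, chromosome 17), whose product geminin binds Cdt1 and keeps origins from being licensed again, was at 74.2, 76.9 and 67.1 CPM in control. In PCBP1-OE it was at 58.7, 59.2 and 62.0 CPM. All 3 PCBP1-OE values were lower than the lowest control, that of replicate 3. Gmnn fell by 17.5% (log2 fold change -0.28, SE 0.057, adjusted p = 0.015 by edgeR). The loading factors did not pass. Cdc6 had a log2 fold change of -0.20 (adjusted p = 0.079) and Cdt1 one of -0.11 (adjusted p = 0.19), both below control in every library. Of the subunits of the origin recognition complex listed, Orc6 stood at -0.18 (adjusted p = 0.16) and Orc1 at -0.044 (adjusted p = 0.81), and in both the groups overlapped.

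**Figure D3:**
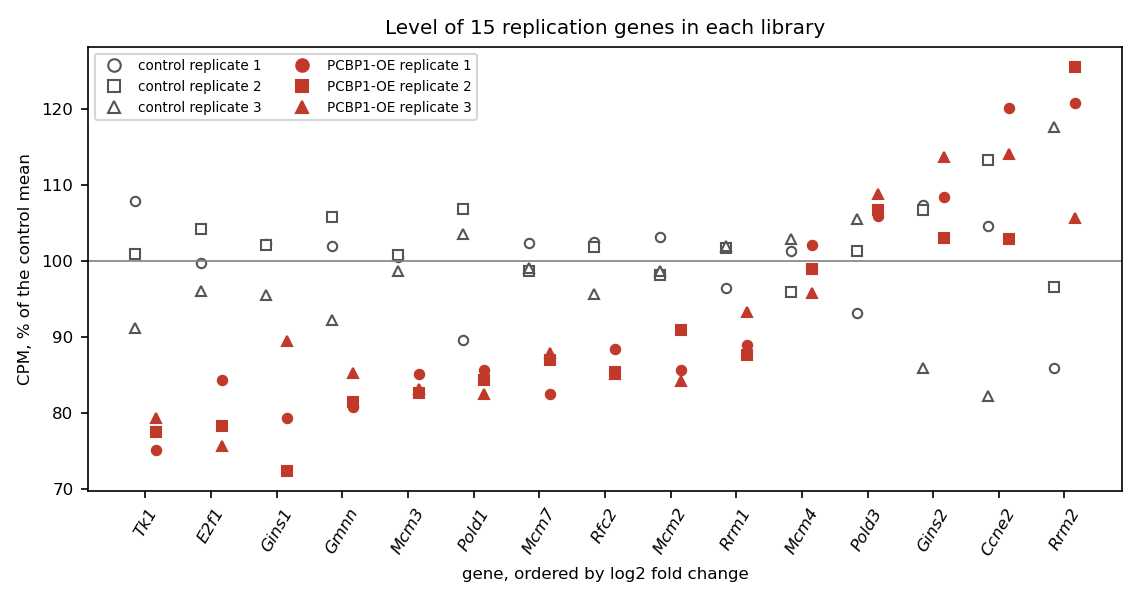
Level of 15 replication genes in every library, as a percentage of the gene's control mean (vertical axis), with open symbols for control and filled red symbols for PCBP1-OE, and 1 shape per replicate number, which pairs nothing. The 9 genes that fell and Pold1 have all PCBP1-OE points below all control points, and the points of Mcm4, Gins2, Ccne2 and Rrm2 overlap.

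Origin firing genes stood on both sides of 0. Of the 6, 1 fell (Gins1), the median was -0.053 on the log2 scale and 2 were positive. That median turned to 0.0032 without control replicate 1, and it was -0.095 and -0.023 without PCBP1-OE replicate 1 or 2 and -0.033 with upper-quartile scaling. Gins1 (ENSRNOG00000008091, chromosome 3) encodes a subunit of GINS, which with Cdc45 turns the loaded ring into a working helicase. It was at 29.1, 29.0 and 27.2 CPM in control and at 22.6, 20.6 and 25.4 CPM in PCBP1-OE. PCBP1-OE replicate 3 came near the lowest control, and the groups did not overlap. The log2 fold change was -0.31 (SE 0.086, adjusted p = 0.040 by edgeR), and the adjusted p was 0.14, 0.17, 0.14 and 0.16 without control replicate 1 or 2 or PCBP1-OE replicate 1 or 2.

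Gins2, another subunit of the same complex, was at 44.6, 44.3 and 35.7 CPM in control and at 45.0, 42.8 and 47.2 CPM in PCBP1-OE. The groups overlapped, with control replicate 3 alone at the low end. Its log2 fold change was 0.12 (SE 0.081, adjusted p = 0.37), and without control replicate 3 it was 0.017. As a ratio of CPM within a library, also formed after the values were seen, Gins2 to Gins1 was 1.53, 1.52 and 1.31 in control and 1.99, 2.07 and 1.85 in PCBP1-OE. The other two GINS genes had log2 fold changes of -0.10 (Gins4) and 0.034 (Gins3). Cdc45 stood at -0.18 with an adjusted p of 0.27, and Mcm10, which helps to activate the helicase, at -0.0027 with an adjusted p of 0.98.

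The polymerase and fork genes, the largest group, had a median of -0.12 on the log2 scale, which was -0.071 without control replicate 2 and -0.17 without control replicate 3. Of the 20, 1 fell (Rfc2), 17 had a negative log2 fold change, 6 lay below control in every library and 1 above. Across all genes tested, 5% fell, 16.5% lay below control in every library and 14.1% above. At an unadjusted p of 0.05, 7 were lower and 0 higher. Without control replicate 3, 6 of the 20 fell, and without control replicate 2 or PCBP1-OE replicate 1 or 2, 0. Over all genes, 1465 of 12815 tested fell without control replicate 3.

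Rfc2 (ENSRNOG00000001457, chromosome 12) belongs to the clamp loader, which opens the Pcna ring and places it on DNA. It was at 78.4, 78.0 and 73.2 CPM in control and at 67.7, 65.4 and 65.1 CPM in PCBP1-OE. The PCBP1-OE libraries lay close together and below every control. Rfc2 fell by 13.6% (log2 fold change -0.21, SE 0.048, adjusted p = 0.022 by edgeR). The other clamp loader subunits spread from the same decrease to none: Rfc3 stood at -0.22 (adjusted p = 0.056, groups overlapping), Rfc4 at -0.021, Rfc1 at -0.0082 and Rfc5 at 0.0016. Pcna itself was at 354, 356 and 344 CPM in control and at 337, 312 and 347 CPM in PCBP1-OE, with a log2 fold change of -0.081 (adjusted p = 0.28).

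Polymerase delta makes most of the lagging strand, and its subunits stood at both ends of the group. Pold1, the catalytic subunit, was at 30.4, 36.2 and 35.1 CPM in control and at 29.0, 28.6 and 28.0 CPM in PCBP1-OE. Every PCBP1-OE library was lower than every control, but the controls spread widely. The log2 fold change was -0.25 (SE 0.075), and the adjusted p of 0.054 was the first above the threshold among the 48 genes, as that of Rrm1 (0.049) was the last within it. Pold3, an accessory subunit, was at 36.4, 39.6 and 41.2 CPM in control and at 41.4, 41.7 and 42.5 CPM in PCBP1-OE. Its PCBP1-OE libraries were all higher than the controls, by little in the case of control replicate 3. The log2 fold change of Pold3 was 0.099 (SE 0.062, adjusted p = 0.32), and that of the subunit Pold2 was -0.14 (adjusted p = 0.16).

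The other fork genes had adjusted p-values above 0.05 and mostly negative log2 fold changes. For polymerase epsilon, which extends the leading strand, these were -0.18 (Pole) and -0.12 (Pole2). In the primer-making complex of polymerase alpha they were -0.14 (Prim2), -0.13 (Pola2), -0.10 (Prim1) and 0.087 (Pola1). The single-strand binding protein RPA had -0.13 (Rpa3), -0.099 (Rpa2) and -0.087 (Rpa1). For the enzymes that finish lagging strand fragments, the values were -0.17 (Fen1, a flap nuclease) and -0.23 (Lig1, a DNA ligase), with adjusted p-values of 0.093 and 0.080 and no overlap between the groups in either. A second row described as DNA ligase 1-like held 44 counts over all libraries and was too low to test.

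Nucleotide supply held the gene with the largest decrease of the 48, Tk1. Of its 5 genes 2 fell, Tk1 and Rrm1, and the median was -0.15 on the log2 scale. Tk1 (ENSRNOG00000047314, chromosome 10) encodes the cytosolic thymidine kinase of the salvage pathway, an enzyme of cycling cells. It was at 178, 167 and 151 CPM in control and at 124, 128 and 131 CPM in PCBP1-OE. The controls differed among themselves by more than the PCBP1-OE libraries did, and the lowest control was still above all of these. Tk1 fell by 22.7% (log2 fold change -0.37, SE 0.058, adjusted p = 0.0059 by edgeR), and without control replicate 2 its adjusted p was 0.067.

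Rrm1 and Rrm2 encode the large and small subunits of ribonucleotide reductase, which makes deoxyribonucleotides. Rrm1 (ENSRNOG00000045752, chromosome 1) was at 235, 248 and 248 CPM in control and at 217, 213 and 227 CPM in PCBP1-OE. No PCBP1-OE library reached the lowest control, and Rrm1 fell by 10.1% (log2 fold change -0.15, SE 0.045, adjusted p = 0.049). This call was lost under RLE scaling (adjusted p = 0.051), upper-quartile scaling (0.074) and a filter of at least 1 CPM in at least 3 libraries (0.052). The row named Rrm2 (ENSRNOG00000054286, chromosome 6) ran the other way, at 63.1, 70.9 and 86.4 CPM in control and 88.8, 92.2 and 77.6 CPM in PCBP1-OE. Its groups overlapped, with control replicate 3 above PCBP1-OE replicate 3. The log2 fold change was 0.23 (SE 0.094, adjusted p = 0.13), and without control replicate 3 it was 0.36 with an adjusted p of 0.00185.

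The Rrm2 row held a small share of the reads of this enzyme. A protein-coding gene on another chromosome, LOC100359539 (ENSRNOG00000008450, chromosome 19), is described in the table as the M2 polypeptide of ribonucleotide reductase, and it held 86.0% of the counts of both rows. This was noticed after the values had been seen. LOC100359539 was at 539, 529 and 491 CPM in control and at 461, 449 and 486 CPM in PCBP1-OE, with no overlap and a log2 fold change of -0.16 (SE 0.049, adjusted p = 0.058). The share that fell on the Rrm2 row was 10.5, 11.8 and 14.97% in control and 16.1, 17.0 and 13.8% in PCBP1-OE. With both rows summed, the levels were 602, 600 and 577 CPM in control and 550, 542 and 563 CPM in PCBP1-OE. The sum stood below control in every library, with a log2 fold change of -0.10 (SE 0.042, adjusted p = 0.12). Thus the sign of the Rrm2 row (0.23) turned when the rows were added, and since the sequences of the rows were not compared here and reads of similar genes can fall on either row, the level of Rrm2 is uncertain.

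**Figure D4:**
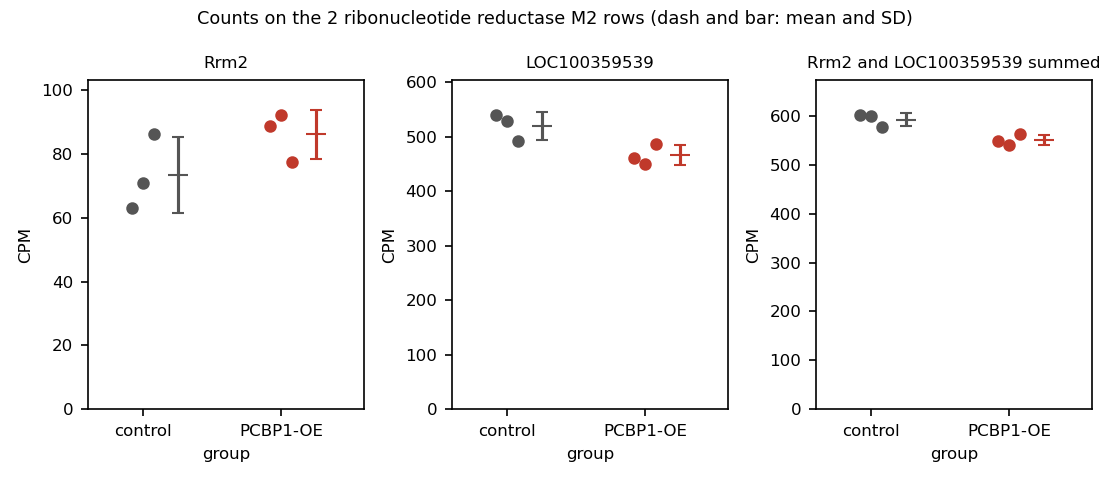
CPM in each library (points) with mean and SD (dash and bar, n = 3) for the Rrm2 row, the LOC100359539 row and their sum, in control and PCBP1-OE, on axes that start at 0. PCBP1-OE lies below control for LOC100359539 and the sum, and the groups overlap for the Rrm2 row.

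The other enzymes of this group lie on the path to thymidine nucleotides. Dut, which removes dUTP, was at 141, 137 and 121 CPM in control and 113, 115 and 124 CPM in PCBP1-OE. PCBP1-OE replicate 3 lay above control replicate 3, and the log2 fold change was -0.18 (SE 0.059, adjusted p = 0.065). Tyms, thymidylate synthase, was at 39.9, 39.4 and 40.4 CPM in control and at 39.3, 38.9 and 38.6 CPM in PCBP1-OE. Although these groups did not overlap, the log2 fold change was -0.035 (SE 0.055, adjusted p = 0.72).

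S-phase control and methylation genes had a median of -0.028 on the log2 scale, and 1 of 6 fell. The median was -0.0086 with upper-quartile scaling, -0.017 when control replicate 3 was left out and -0.019 when PCBP1-OE replicate 2 was. E2f1 (ENSRNOG00000016708, chromosome 3), a transcription factor that drives entry into S phase, was at 53.6, 56.0 and 51.6 CPM in control and at 45.3, 42.1 and 40.7 CPM in PCBP1-OE. The groups were well apart. E2f1 fell by 20.5% (log2 fold change -0.33, SE 0.060, adjusted p = 0.0098 by edgeR), and its adjusted p was 0.069 without control replicate 2 and 0.053 without PCBP1-OE replicate 2.

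The cyclins E1 and E2 bind the same kinase, Cdk2, at the start of S phase. Ccne1 was at 24.6, 24.9 and 20.7 CPM in control and at 19.2, 20.02 and 17.5 CPM in PCBP1-OE, with no overlap, a log2 fold change of -0.31 (SE 0.095) and an adjusted p of 0.060. Ccne2 was at 23.3, 25.2 and 18.3 CPM in control and 26.8, 22.9 and 25.4 CPM in PCBP1-OE. Control replicate 3 was again the lowest, and the other libraries of both groups were mixed. Its log2 fold change was 0.17 (SE 0.11, adjusted p = 0.33), and 0.045 without control replicate 3. The ratio of Ccne2 to Ccne1 within a library, formed after the values were seen, was 0.948, 1.02 and 0.886 in control and 1.39, 1.15 and 1.45 in PCBP1-OE.

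The genes that carry DNA methylation and histone supply through S phase had small log2 fold changes, and none passed. Dnmt1, the maintenance methyltransferase, stood at -0.053 on the log2 scale (SE 0.045, adjusted p = 0.47). Uhrf1, which brings Dnmt1 to newly copied DNA, stood at -0.0041 (SE 0.044, adjusted p = 0.96). Slbp binds the stem-loop of histone mRNAs and had a log2 fold change of 0.057 (SE 0.047, adjusted p = 0.45). A row described as stem-loop binding protein-like held 30 counts and one described as replication protein A3-like held 1, both too low to test.

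The libraries of the groups were apart in some role groups and overlapped in others when the genes of a role were averaged. On the log2 CPM scale, the mean deviation of the licensing genes from the mean of all 6 libraries was 0.12, 0.067 and 0.058 in control and -0.081, -0.091 and -0.071 in PCBP1-OE. For the origin firing genes it was 0.12, 0.026 and -0.033 in control and 0.012, -0.11 and -0.015 in PCBP1-OE. The groups thus did not overlap for licensing and overlapped for origin firing. They were also apart for the polymerase and fork genes (0.0100 to 0.090 in control, -0.068 to -0.039 in PCBP1-OE) and for nucleotide supply (0.038 to 0.057 in control, -0.060 to -0.042 in PCBP1-OE). No difference between role groups was tested.

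**Figure D5:**
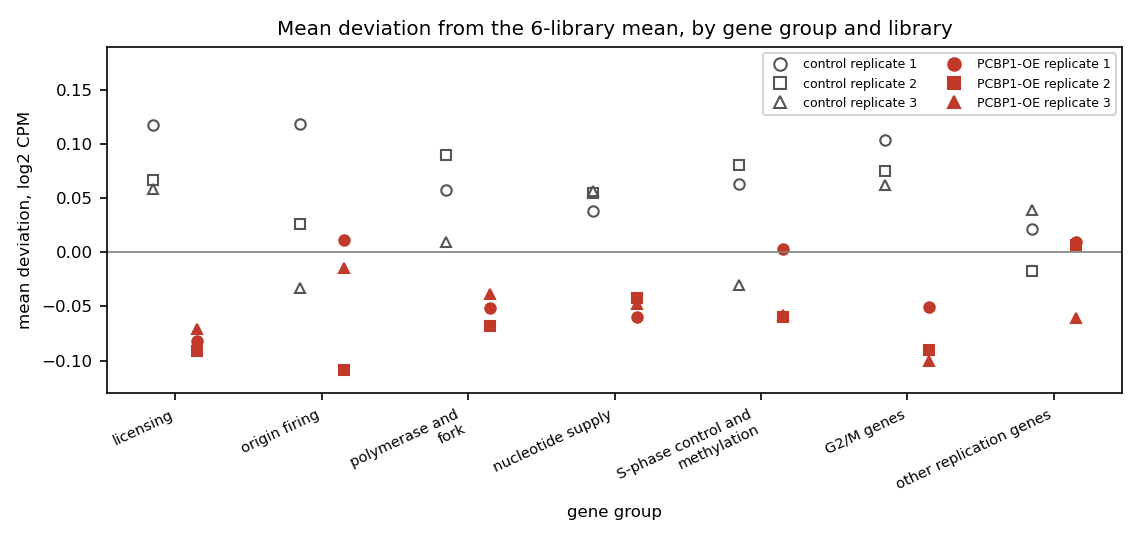
Mean deviation of each gene group from its mean over the 6 libraries (vertical axis, log2 CPM), 1 point per library, open for control and filled red for PCBP1-OE. The licensing points are at 0.058 to 0.12 in control and -0.091 to -0.071 in PCBP1-OE, and the points of origin firing, of S-phase control and methylation and of the other replication genes overlap.

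Replication genes with and without the E2F word in the promoter had close medians. The 20 replication genes with a word had a median log2 fold change of -0.13 and 5 of them fell, and the 20 without one had a median of -0.14 and 3 fell. Among genes on none of the lists, 345 with a word were tested, of which 4.64% fell and 5.80% rose, compared with 5.16% and 4.60% of 8376 without one. Of the sequences shown above, those of Mcm2, Mcm3, Mcm7, Gmnn and Gins1 belong to genes that fell and that of Pold3 to a gene with a log2 fold change of 0.099.

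Other genes of the pathway were counted from further lists, which like the members were written with earlier results known. Of 43 rows of other replication genes tested (44 genes were listed), 5 fell and 1 rose, with a median of -0.067 on the log2 scale (-0.042 without control replicate 1 and -0.044 without PCBP1-OE replicate 3). Those that fell were Top2a, the topoisomerase that separates finished chromosomes (log2 fold change -0.28), Rnaseh2a, a subunit of ribonuclease H2 (-0.25), the histone chaperones Asf1b (-0.27) and Chaf1b (-0.28), and Cdca7 (-0.21). Top1, the topoisomerase that relaxes DNA ahead of the fork, rose by 0.43 on the log2 scale. It was at 17.9, 16.6 and 23.6 CPM in control and at 25.1, 28.7 and 24.9 CPM in PCBP1-OE, so that control replicate 3 came near the PCBP1-OE libraries. When any single library other than control replicate 3 was left out, 0 other replication genes rose. Among 25 other nucleotide-supply genes 1 fell (Nme2, -0.21) and 0 rose, with 8 lower and 1 higher at an unadjusted p of 0.05 and 1 fallen with DESeq2. Across all genes tested, 5% fell and 4.45% rose. Without control replicate 2, 0 other replication genes and 0 other nucleotide-supply genes passed the test, and without control replicate 3 the numbers that fell were 10 and 9. Over all genes, 12 of 12815 tested fell without control replicate 2 and 1465 of 12815 without control replicate 3.

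Regulators of the transition from G1 to S moved both ways. Of 27 tested, 3 rose: Myc (log2 fold change 0.25), the kinase inhibitor Cdkn1b (0.23) and Rb1, which holds E2F factors in check (0.62). Ccnd3, cyclin D3, fell by 0.16 on the log2 scale, and the median of the list was -0.037. With upper-quartile scaling that median was -0.017, and it was -0.0042 when control replicate 3 was left out, -0.056 when PCBP1-OE replicate 1 was and -0.021 when PCBP1-OE replicate 3 was. Rb1 was at 10.1, 9.97 and 15.3 CPM in control and at 19.2, 19.7 and 15.5 CPM in PCBP1-OE, so that control replicate 3 and PCBP1-OE replicate 3 nearly met. Without control replicate 1 or 2 or PCBP1-OE replicate 1, 0 genes of this list rose, and 0 fell without any single library other than control replicate 3.

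The G2/M genes, which act after S phase, had a lower median than the replication genes. Of 36 tested 19 fell and 0 rose, with a median of -0.20 on the log2 scale, and 22 were lower and 1 higher at an unadjusted p of 0.05. With DESeq2 19 fell and 0 rose. The 5 with the smallest adjusted p were the mitotic kinases Plk1 (log2 fold change -0.39), Cdk1 (-0.41) and Aurkb (-0.29), the condensin subunit Ncaph (-0.38) and Cdc20, which activates the anaphase-promoting complex (-0.28). Without control replicate 1, 2 or 3 the number that fell was 6, 3 and 20, and without PCBP1-OE replicate 1, 2 or 3 it was 8, 5 and 10. The difference between the G2/M and the replication genes was not tested.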

How the data were processed

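RNA-seq was measured in 3 control and 3 PCBP1-OE libraries, grouped by the titles in the labels. The deposited table holds raw counts per gene, as the authors made them. Per the paper's methods, reads were trimmed with FASTX-Toolkit, aligned to the Ensembl rat genome Rnor_6.0 with TopHat2, and uniquely mapped reads were counted. The submitters' processing notes list bcl2fastq, TopHat2, edgeR and the build GRCh38, which is a human assembly, while the gene identifiers are those of the rat. How reads were counted (tool, strand, annotation release) is not given in the sources used here, which leaves genes that overlap or have near copies uncertain. The labels and the paper name different library kits, both of them strand-specific.

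In the present computation, edgeR 4.0.16 (R 4.3.3) was used with TMM scaling, filterByExpr (minimum count 10, minimum total count 15) and the quasi-likelihood test of PCBP1-OE against control, without a block. This kept 12624 genes and left out 7985 with low counts, and p-values were adjusted by the Benjamini-Hochberg method over all genes tested. A call has an adjusted p of 0.05 or less, at any fold change. CPM are scaled by TMM library sizes, except the marker sums, which are scaled by the total counts alone. The ratios within a library and the mean deviations come from log2 CPM with a prior count of 2 added. SE is the standard error of the log2 fold change. The depth of 19730209 to 22315623 counts per library sets the precision of low genes. Replicates within groups did not match to within sampling noise (chi-square per gene 5.49 to 16.0).

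The members, their roles and the further lists were chosen with earlier results of these data known. Every member is named. Values in each library are given for members with a call and for the highest and lowest log2 fold change in each role group, and up to 5 called genes of each further list are named. Values of Pcna, Dut, Tyms, Ccne1, Rb1 and Top1 in each library, the ratios and the row LOC100359539 were chosen after the values were seen. E2F, CCAAT and CHR words were searched in RefSeq promoter sequences of GRCr8, matched by symbol, with Python 3.11.15.

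The fit was repeated with upper-quartile or RLE scaling, without a filter, with a filter of at least 1 CPM in at least 3 libraries, with limma-voom (limma 3.58.1), with DESeq2 1.42.0, with a block for the replicate number, and without each library. Adding the rows of Rrm2 and LOC100359539 was chosen after seeing the data. The pipeline was tested on simulated data. Pcbp1 is not analysed here.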

Additional observations from a re-analysis of the deposited data

How the results depend on the processing

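The median log2 fold change of the 48 replication genes stayed negative under every alternative run, from -0.15 to -0.10 with each library left out and -0.11 under upper-quartile scaling. Counts of calls moved more. With no filter on low counts, 2090 genes were called, of which 15 replication genes were lower and 1 higher. Leaving out 1 library at a time gave 48 to 2860 calls over all genes, 0 to 17 replication genes lower and 0 to 1 higher. Each of these fits has 1 library less and so fewer degrees of freedom. From 1193 in the full fit, the calls went to 2860 without control replicate 3 and to 48 without control replicate 2. The cause of these shifts was not tested. RLE scaling gave 1159 calls and 8 replication genes lower, upper-quartile scaling 1082 and 8, the filter of at least 1 CPM in at least 3 libraries 1204 and 8, DESeq2 1418 and 12, and limma-voom 1197 and 9.

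The labels number the replicates of both groups, but the deviations of same-numbered libraries from their group means correlated at -0.078, -0.051 and -0.043 across genes, so the numbers were not taken as pairs. With the replicate number as a block 16 genes were called, with 0 replication genes lower and 0 higher. No library correlated best with the one of its own number.

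The log2 fold change of Mcm4, -0.015 in the full fit, was 0.0050 under upper-quartile scaling. With single libraries left out it lay between -0.038 and 0.015, and was above 0 when control replicate 1 (0.00025), control replicate 3 (0.0056) or PCBP1-OE replicate 3 (0.015) was the one missing. That of Rrm2, 0.23, was -0.10 when its row was summed with LOC100359539. Changes of less than about the standard errors given, 0.04 to 0.11 on the log2 scale for these genes, are not resolved with 3 libraries a group. Changes larger than their standard error can also fail to pass. The Rrm2 row is a case, at 0.23 with SE 0.094 (adjusted p = 0.13 by edgeR's quasi-likelihood test).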
